A study of Rattus norvegicus with 64 samples.

Results

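Doxorubicin effects in the hippocampus were compared with those in the cortex of the same ApoE3 rats, across all measured genes. The comparison uses 32 of the 64 RNA sequencing libraries of the study: those labelled ApoE3, from 16 rats that each gave 1 hippocampal and 1 cortical library. ApoE3 and ApoE4 are human forms of apolipoprotein E, a lipid carrier of the brain, and every library used here holds reads on a row named for an ApoE3 donor sequence. Of the 16 rats, 8 received doxorubicin and 8 received phosphate-buffered saline (PBS), with 4 males and 4 females in each treatment. Doxorubicin was given at 2 mg/kg per week for 4 weeks from an age of 5 weeks. The brains were sampled 5 to 6 weeks after dosing ended. The strain of the rats, the promoter that drives the human gene and any batch of RNA extraction or sequencing are not stated in the labels. Rat numbers ran in unbroken blocks by sex and treatment, so a batch that followed these blocks and acted unequally on the regions cannot be told apart from the drug.

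Doxorubicin is an anthracycline chemotherapy drug that poisons topoisomerase II and crosses the blood-brain barrier poorly. Oligodendrocytes wrap axons in myelin, a stacked membrane rich in galactolipids and in a few abundant proteins, and in rodents it goes on being laid down after weaning. The meninges are the connective tissue coverings of the brain. They consist largely of fibroblasts that make collagens, they carry the larger vessels with their smooth muscle, and they lie on the surface of the cortex and in the fissure of the hippocampus.

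The quantity reported throughout is the regional difference: the log2 change of doxorubicin against PBS in hippocampus minus the same change in cortex, with the rat as a block. A positive value means that the hippocampal change was the more positive. In a single rat its counterpart is the within-rat difference, the log2 level in hippocampus minus that in cortex. Levels are in CPM, the counts of a gene relative to the TMM-scaled total of its library. The CPM of single genes in the check of libraries that follows are not on the TMM scale. A gene is said to pass when its p, adjusted by Benjamini-Hochberg over all genes tested in edgeR's quasi-likelihood test, was under 0.05.

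Depth ran from 10.8M to 20.4M counts per library, with a median of 14.2M. Spike-in RNA took 0.932% to 1.95% of the counts and mitochondrially encoded genes took 6.15% to 10.1%. Y-linked genes separated the sexes in every library, and the neuronal factors Prox1, Cux2 and Tbr1 separated the regions; Rorb, a further region marker, overlapped at its edge (5.90 to 11.6 CPM in hippocampus, 11.5 to 23.5 CPM in cortex). The Y-linked genes Kdm5d and Eif2s3y were at 38.4 to 55.3 CPM and 53.2 to 72.7 CPM in males and at 0 in females. Prox1, a dentate granule cell factor, was at 67.3 to 113 CPM in hippocampus and 10.4 to 18.2 CPM in cortex. The donor row was at 1242 to 3128 CPM and the rat's own Apoe at 3.07 to 8.71 CPM (1286 to 3184 and 3.14 to 8.84 on the TMM scale). Choroid plexus genes, those of the epithelium that makes cerebrospinal fluid, were high in 6 libraries. The mean level of that list exceeded 3 log2 CPM in the hippocampus of PBS rats 37 and 41 and doxorubicin rats 51 and 65, and in the cortex of PBS rat 58 and doxorubicin rat 72.

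Few genes differed between the regions in their response, and those that did included myelin genes in 1 direction and, among others, 2 collagen genes in the other. Of 15428 genes tested, 9 passed (0.0583%), 4 with a higher difference (0.0259%) and 5 with a lower one (0.0324%). The higher genes included Fa2h, Opalin and Ugt8. The 5 lower genes were Col12a1, Cfd, Fgl2, Col6a2 and Tph1, and the smallest adjusted p was 0.0180. At an unadjusted p under 0.05 there were 1268 genes (8.22%), against 771 if p-values were evenly spread, and lower differences were the more frequent (851, 5.52%, against 417, 2.7%). With single rats left out in turn the count ran from 0 to 63, the highest without PBS rat 56. It was 19 without doxorubicin rat 47 and 4 without PBS rat 41 or doxorubicin rat 49. Without the block 0 genes passed, with a smallest adjusted p of 0.0601, and 0 passed without PBS rat 45, without doxorubicin rat 72 or without the 6 rats rich in choroid plexus genes; the last setting was chosen after seeing the data. DESeq2 called 82 genes, among them 8 of the 9, and limma-voom called 0, with 1227 genes at an unadjusted p under 0.05.

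The changes in the regions had opposite signs. For 7 of the 9 genes both regional changes could be fitted, and in 7 of 7 the hippocampal and cortical changes had opposite signs. The hippocampal change was the larger in all 7 and had an unadjusted p under 0.05 in all 7, against 3 of 7 for the cortical change. Among all genes with an unadjusted p under 0.05 for the regional difference, the signs were opposite in 1077 of 1176 (91.6%), and among all tested genes in 6647 of 14500 (45.8%). A large difference favours opposite signs by its construction, so these shares are a description. Within 1 region no gene passed on its own by edgeR. In hippocampus 0 of 14899 genes passed, with 1530 at an unadjusted p under 0.05 (10.3%), whereas 145 were called by DESeq2. In cortex 0 of 14775 passed, with 1366 at an unadjusted p under 0.05 (9.25%), whereas 77 were called by DESeq2. The authors' deposited tables list 149 of 15035 genes in hippocampus and 8 of 14934 in cortex with an adjusted p under 0.05.

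**Figure D1:**
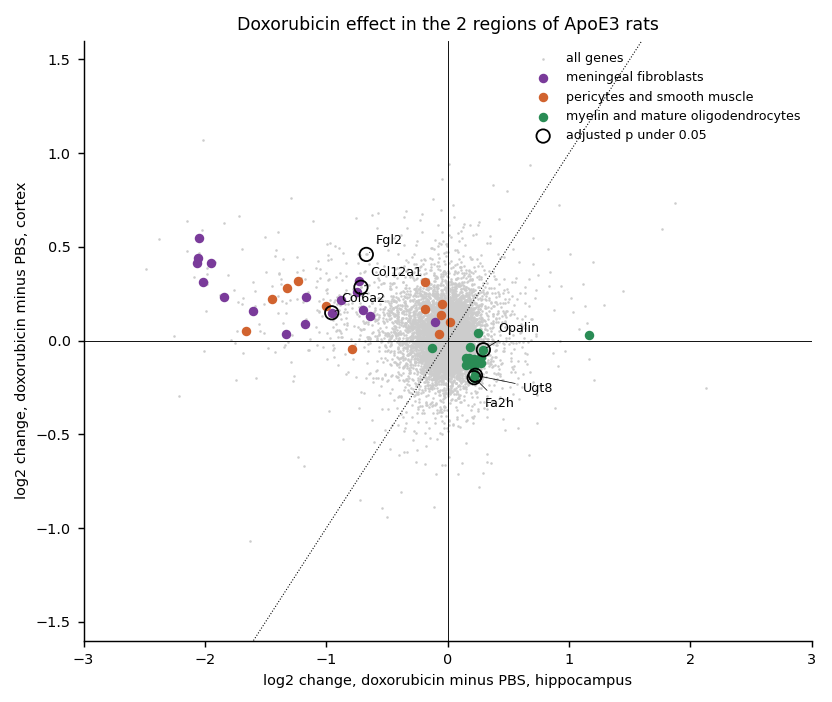
The log2 change of doxorubicin against PBS in hippocampus (horizontal axis) and cortex (vertical axis) for each gene, with all genes in gray, meningeal genes in purple, pericyte and smooth muscle genes in orange, myelin genes in green and open circles around 6 passing genes measured in both regions; the dotted line marks equal change, the axes differ in scale, and genes past their ends are not drawn. Myelin genes lie to the right of 0 and mostly below it, and meningeal genes lie to the left and above.

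Fa2h, Opalin and Ugt8 are genes of the myelin-forming cell. Fa2h (ENSRNOG00000018950) encodes the fatty acid 2-hydroxylase that supplies hydroxylated fatty acids for myelin galactolipids, and Ugt8 (ENSRNOG00000009345) encodes the galactosyltransferase that makes galactosylceramide. Opalin (ENSRNOG00000022386) encodes a transmembrane glycoprotein of the oligodendrocyte paranodal loops. Promoter sequence from RefSeq on build GRCr8, the 250 bases upstream of the gene start, was matched for the 3 genes and is shown because they moved together. The stretches are chr19:56273481-56273730 for Fa2h, chr1:249858191-249858440 for Opalin and chr2:217007168-217007417 for Ugt8, all on the minus strand and read 5′ to 3′ toward the gene. Capitals mark ACAAAG or ACAATG on either strand, the core letters bound by SOX factors, of which Sox10 is the one of oligodendrocytes:
Fa2h: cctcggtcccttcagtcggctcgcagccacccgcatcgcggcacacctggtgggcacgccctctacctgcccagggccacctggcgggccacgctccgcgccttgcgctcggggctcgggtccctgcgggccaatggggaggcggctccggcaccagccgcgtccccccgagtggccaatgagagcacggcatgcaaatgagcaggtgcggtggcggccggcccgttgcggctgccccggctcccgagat
Opalin: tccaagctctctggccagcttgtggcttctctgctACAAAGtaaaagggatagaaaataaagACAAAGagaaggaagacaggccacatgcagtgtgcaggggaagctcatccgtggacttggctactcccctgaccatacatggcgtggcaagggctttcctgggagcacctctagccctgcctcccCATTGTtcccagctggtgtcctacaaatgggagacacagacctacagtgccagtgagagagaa
Ugt8: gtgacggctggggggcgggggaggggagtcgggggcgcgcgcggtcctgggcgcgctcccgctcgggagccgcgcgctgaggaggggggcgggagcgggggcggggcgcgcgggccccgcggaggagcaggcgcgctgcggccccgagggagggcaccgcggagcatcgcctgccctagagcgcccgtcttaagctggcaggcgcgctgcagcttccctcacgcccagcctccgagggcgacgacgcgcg
The Opalin promoter held 3 matches, at positions -215, -188 and -63 counted from the start, the last of them on the other strand, and those of Fa2h and Ugt8 held 0 in this window. Of 33469 promoters of the same length in the table, 25.3% held either core, 16.3% ACAAAG and 11.1% ACAATG. GC content was 53.2% for Opalin, 74.4% for Fa2h and 81.2% for Ugt8.

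Fa2h was at 29.1, 35.4 and 39.4 CPM (lowest, median, highest) in PBS hippocampus and 32.4, 39.2 and 52.7 CPM in doxorubicin hippocampus, and at 37.2, 43.6 and 47.8 CPM in PBS cortex and 31.7, 36.9 and 42.7 CPM in doxorubicin cortex. Within rats the PBS differences ran from -0.50 to -0.21 and the doxorubicin differences from -0.12 to 0.30, with no overlap. The cortex thus held more Fa2h than the hippocampus in 8 of 8 PBS rats. This gave a regional difference of 0.41 (SE 0.07, adjusted p = 0.0180), from 0.22 (SE 0.07) in hippocampus and -0.20 (SE 0.06) in cortex. Of the 3 genes Fa2h had the smallest unadjusted p in cortex, 0.00298.

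Opalin and Ugt8 followed, and as for Fa2h their PBS and doxorubicin levels overlapped inside each region. Opalin was at 99.1, 106 and 129 CPM in PBS hippocampus against 104, 138 and 162 CPM after doxorubicin, and at 127, 149 and 166 CPM in PBS cortex against 115, 147 and 169 CPM. Its hippocampal change was 0.29 (SE 0.08) and its cortical change -0.05 (SE 0.07), so the regional difference of 0.34 (SE 0.06, adjusted p = 0.0356) lay mostly in hippocampus. The within-rat differences were -0.52 to -0.29 in PBS rats and -0.22 to 0.15 in doxorubicin rats, again without overlap. Ugt8 was at 61.3, 77.5 and 85.1 CPM in PBS hippocampus against 68.6, 91.5 and 105 CPM, and at 78.2, 96.9 and 117 CPM in PBS cortex against 63.9, 87.3 and 109 CPM. Its regional difference was 0.41 (SE 0.07, adjusted p = 0.0411), and 7 of 8 doxorubicin rats lay above the PBS range. Over all genes, 3 had doxorubicin differences all above the PBS differences (0.0194%), among them Fa2h and Opalin.

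Next in the higher direction, by p, were genes that did not pass, most of them also oligodendrocyte genes. S1pr5, a sphingosine-1-phosphate receptor of oligodendrocytes, had a regional difference of 0.37 (adjusted p = 0.0666). Ermn, a cytoskeletal protein of myelinating cells, had 0.39 (adjusted p = 0.0666), and Klk6, a secreted protease of oligodendrocytes, had 0.39 (adjusted p = 0.0865). Cnp, the myelin phosphodiesterase, was at 0.28 (adjusted p = 0.0937), Mal, a lipid raft proteolipid, at 0.32 (adjusted p = 0.0974), and Mog, the myelin oligodendrocyte glycoprotein, at 0.27 (adjusted p = 0.108). Tubb4a, a tubulin abundant in oligodendrocytes, was at 0.24 and Gpd1, a glycerol phosphate dehydrogenase, at 0.26, both with an adjusted p of 0.108.

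The myelin list as a whole shifted in this direction. Over all tested genes, 49.8% had a higher difference and 50.2% a lower one. Of its 18 members tested, 17 had a higher difference and 16 had an unadjusted p under 0.05 in that direction (88.9%, against 2.7% of all genes), with a median of 0.30 against -0.0003 over all genes. In hippocampus 17 of 18 members had a positive change, 13 of them at an unadjusted p under 0.05, with a median of 0.21. Over all genes, 652 of 14890 had a positive hippocampal change at that p. In cortex 16 of 18 members had a negative change, 2 of them at an unadjusted p under 0.05, with a median of -0.10. Over all genes, 563 of 14775 had a negative cortical change at that p. For the regional difference, the myelin members short of that p were Aspa, an aspartoacylase, at -0.09 and Enpp2, the lysophospholipase autotaxin, at 0.30. Mbp, myelin basic protein, was at 0.30 (SE 0.10, adjusted p = 0.332). The 18 genes are expressed by the same cells, so they are not independent of each other, and in bulk tissue fewer cells of a type and less RNA per cell cannot be told apart.

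The mean level of the myelin list gave the same picture rat by rat. In hippocampus it was 7.26 ± 0.18 log2 CPM (SD, n = 8) in PBS rats and 7.46 ± 0.24 in doxorubicin rats, and in cortex 7.54 ± 0.13 and 7.44 ± 0.16. The within-rat difference was -0.28 ± 0.10 (from -0.42 to -0.13) in PBS rats and 0.01 ± 0.15 (from -0.21 to 0.19) in doxorubicin rats, and 6 of 8 doxorubicin rats lay above the highest PBS rat. The count of members at an unadjusted p under 0.05 was 16 with each rat left out in turn, and it was 15 of 18 without the 6 rats rich in choroid plexus genes. With the meningeal level of each library as a covariate it was 15 of 18, with a median of 0.35, and Fa2h passed (adjusted p = 0.0382). It was 15 of 18 in males alone (all genes: 769 of 15505) and 9 of 18 in females alone (all genes: 1036 of 15445). Scaling by spike-ins left the median at 0.34 and the count at 5.

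Of 11 tested genes of oligodendrocyte precursors and immature cells, 9 had a higher difference and 4 had an unadjusted p under 0.05 in that direction (36.4%), with a median of 0.13. These were the lineage factors Olig2 (0.21, SE 0.07) and Sox10 (0.22, SE 0.07), and Bcas1 (0.24, SE 0.10) and Enpp6 (0.24, SE 0.11), both of newly forming oligodendrocytes; 0 passed. The lower members were Pdgfra (-0.21) and Cspg4 (-0.11), which the meningeal list and the pericyte list hold as well. The cholesterol synthesis list, which supplies myelin lipid among other uses, had 16 of 19 members with a higher difference and a median of 0.05. Only Mvd (0.21) and Sc5d (0.10) had an unadjusted p under 0.05 (10.5%, against 2.7% of all genes).

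**Figure D2:**
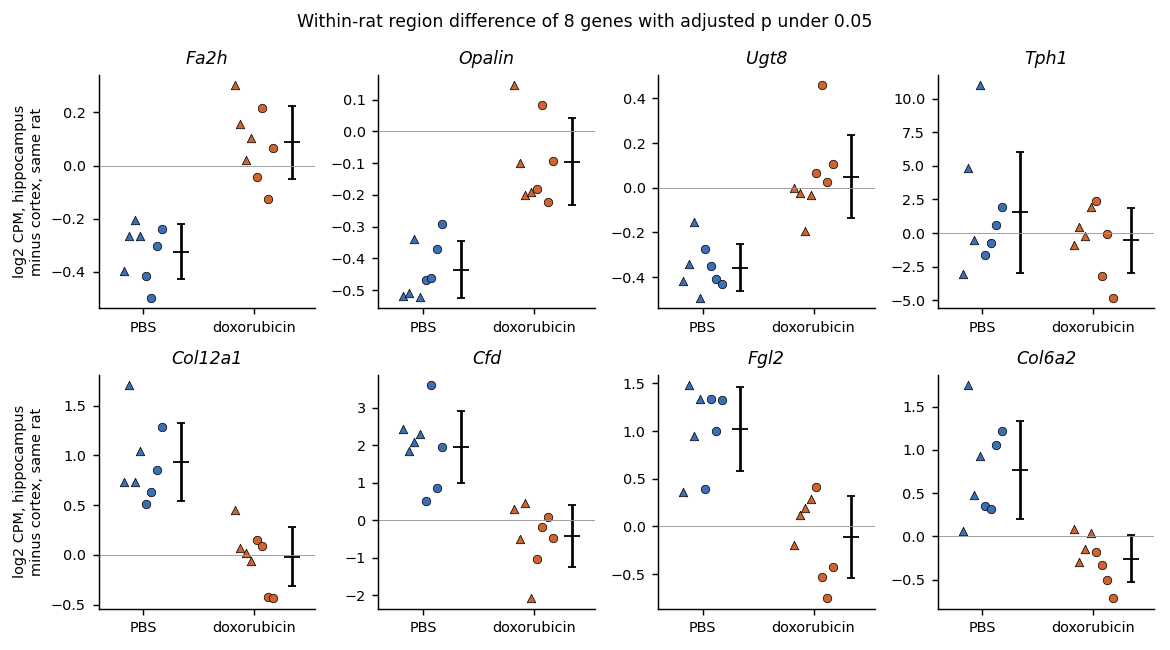
Within-rat difference in log2 level (hippocampus minus cortex, vertical axis) for 8 passing genes in PBS and doxorubicin rats, with triangles for males, circles for females and bars for the mean ± SD of 8 rats. For Fa2h, Opalin, Col12a1 and Cfd the 8 doxorubicin rats lie outside the range of the 8 PBS rats, whereas for Tph1 a few rats carry the spread.

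Among the 5 lower genes, 2 encode collagen chains. Col12a1 (ENSRNOG00000058470) encodes the chain of a collagen that decorates collagen fibrils. It was at 27.2, 33.6 and 53.1 CPM in PBS hippocampus and 19.2, 22.6 and 30.6 CPM in doxorubicin hippocampus, and at 15.6, 19.3 and 24.2 CPM in PBS cortex and 17.6, 22.5 and 33.2 CPM in doxorubicin cortex. The hippocampus of every PBS rat held more than its cortex, by 0.51 to 1.70 on the log2 scale, and the doxorubicin rats ran from -0.43 to 0.45. These ranges did not overlap. The regional difference was -0.96 (SE 0.15, adjusted p = 0.0180), from -0.71 (SE 0.16) in hippocampus and 0.28 (SE 0.09) in cortex.

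Col6a2 (ENSRNOG00000001254) encodes a chain of the microfibrillar collagen VI, which fibroblasts secrete. It was at 29.4, 45.2 and 81.7 CPM in PBS hippocampus and 20.2, 25.1 and 30.5 CPM in doxorubicin hippocampus, with cortical levels of 23.0, 26.6 and 30.0 CPM and 24.8, 29.7 and 36.8 CPM. The hippocampal groups overlapped only at their edge. Its regional difference was -1.03 (SE 0.19, adjusted p = 0.0464), nearly all from the hippocampal change of -0.96 (SE 0.19), and 7 of 8 doxorubicin rats lay below the PBS range of within-rat differences.

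Fgl2 (ENSRNOG00000012881) encodes a fibrinogen-like protein of macrophages and endothelium. It was at 5.63, 7.66 and 12.8 CPM in PBS hippocampus against 3.27, 5.39 and 8.18 CPM, and at 2.496, 4.52 and 5.04 CPM in PBS cortex against 4.33, 5.47 and 7.76 CPM. Its regional difference was -1.13 (SE 0.21, adjusted p = 0.0430), shared between -0.67 (SE 0.21) in hippocampus and 0.46 (SE 0.15) in cortex. Cfd (ENSRNOG00000033564) encodes complement factor D, the protease that starts the alternative pathway. It was scarce, with 1 to 43 counts per library, and did not pass the filter on low counts in cortex alone. Its level was 0.597, 1.82 and 3.22 CPM in PBS hippocampus against 0.226, 0.703 and 1.09 CPM, and 0.0805, 0.416 and 1.07 CPM in PBS cortex against 0.369, 1.01 and 1.18 CPM. The regions differed by -2.41 (SE 0.44, adjusted p = 0.0411), and the within-rat differences did not overlap. In all, 5 genes had doxorubicin differences all below the PBS differences (0.0324%). Besides Col12a1 and Cfd these were Rasa4 (-0.75, adjusted p = 0.108), Tirap (-1.01, adjusted p = 0.108) and Tmem86b (-0.51, adjusted p = 0.283), which were chosen after their values were seen and did not pass.

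Tph1 (ENSRNOG00000011672), the tryptophan hydroxylase of the pineal gland and gut, passed with a value that rests on 2 libraries. Its count was 22268 in the hippocampus of PBS rat 45 (1670 CPM) and 1739 in the cortex of doxorubicin rat 72 (145 CPM). It was 404 in the hippocampus of PBS rat 41 and 0 to 72, with a median of 3, in the other 29 libraries. The fitted difference was -11.31 (SE 1.69, adjusted p = 0.0180), and without rat 45 it was -4.73 (adjusted p = 0.350). Without rat 72 it was -7.57 (adjusted p = 0.538), and DESeq2 gave -0.95 (adjusted p = 0.977). Of other genes, looked up after these counts were seen, Asmt, Crx and Chrnb4 were high in the same libraries and Cd3e was not. Asmt, which completes melatonin synthesis, had 886 counts in the hippocampus of rat 45 and 72 in the cortex of rat 72, against 13 to 39 in the other 29 libraries. Crx, a homeobox factor of photoreceptors and the pineal gland, had 338 and 16 against 0 to 3. Chrnb4, a nicotinic receptor subunit abundant in the habenula, had 790 and 88 against 0 to 23. Cd3e, of the leukocyte list, had 70 and 13 against 0 to 127. In the hippocampus of rat 41, Asmt had 39 counts, Crx 5 and Chrnb4 47. The mean level of the thalamus and habenula list was 3.88 log2 CPM in the hippocampus of rat 45, against at most 2.79 in the other PBS hippocampi, and 3.44 in the cortex of rat 72, against at most 2.82 in the other doxorubicin cortices. Those 2 rats are also the ones whose removal left 0 genes passing, with the difference of Fa2h at 0.42 (adjusted p = 0.0721) and 0.43 (adjusted p = 0.0512).

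In the lower direction the next genes by p did not pass, most of them with large hippocampal values. Prdm6, a smooth muscle regulator, was at -3.57 (adjusted p = 0.0511) and Pappa2, a protease of insulin-like growth factor binding proteins, at -1.96 (adjusted p = 0.0638). Abi3bp, a matrix protein, was at -2.46 (adjusted p = 0.0865) and Angpt2, the vessel-destabilising angiopoietin, at -2.18 (adjusted p = 0.0958). Mustn1, a small musculoskeletal nuclear protein, was at -1.09 and Sik1, a kinase induced by cyclic AMP, at -0.78, both with an adjusted p of 0.0974. Col5a1, a fibrillar collagen chain, was at -0.63 (adjusted p = 0.108).

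Markers of the meninges and vessels moved with these genes. All 17 tested meningeal fibroblast genes had a lower difference, 14 of them at an unadjusted p under 0.05 (82.4%, against 5.52% of all genes), with a median of -1.29. The median change was -1.17 in hippocampus and 0.23 in cortex, where 17 of 17 members had a positive value. Col6a2 belongs to this list and is its only member that passed. Col1a1, the main fibrillar collagen chain, was at -2.18 (SE 0.53), Aldh1a2, the retinoic acid synthase of the meninges, at -2.07 (SE 0.51), and Slc6a20, a proline transporter, at -2.11 (SE 0.53). Of the 20 genes listed, Col1a2, Col6a3 and Ogn matched no row, and each of the 17 tested members had counts.

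The meningeal level differed widely between hippocampal libraries. It was 4.78 ± 1.01 log2 CPM (SD, n = 8; from 3.35 to 6.01) in PBS hippocampus and 3.60 ± 0.54 (from 3.11 to 4.43) in doxorubicin hippocampus. In cortex it was 3.91 ± 0.22 (from 3.54 to 4.27) and 4.13 ± 0.44 (from 3.56 to 4.97). The hippocampal ranges overlapped, and the spread among PBS hippocampi was the widest of the 4 groups. With this level as a covariate in the fit, Col12a1 was at -0.52 (adjusted p = 0.216), Fgl2 at -0.68 (adjusted p = 0.507) and Cfd, close to its value without the covariate, at -2.15 (adjusted p = 0.403). Col6a2 was at -0.47 (adjusted p = 0.507), but the covariate holds that gene itself. In that fit 5 genes passed, all higher, and 1 of them was among the 9. The within-rat difference of this level itself differed by -1.40 between doxorubicin and PBS rats, so the covariate takes up part of the tested contrast. Where a gene follows this level, the fit cannot tell why. In the choroid plexus list 7 of its 13 members were higher and 6 lower, 0 at an unadjusted p under 0.05, with a median of 0.04.

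Vessel wall genes were lower as well. All 13 tested pericyte and smooth muscle genes had a lower difference, 9 at an unadjusted p under 0.05 (69.2%), with a median of -0.68. The examples of smallest p were Tagln (-1.44, SE 0.39), Cnn1 (-2.57, SE 0.72), Myh11 (-1.40, SE 0.39) and Acta2 (-1.51, SE 0.45), contractile genes of smooth muscle. The level of this list was 4.38 ± 0.59 log2 CPM in PBS hippocampus and 3.69 ± 0.25 in doxorubicin hippocampus, and 3.85 ± 0.17 and 4.02 ± 0.37 in cortex. Of 14 endothelial genes, 13 were lower and 7 had an unadjusted p under 0.05 (50%), with a median of -0.36; Cdh5, the endothelial cadherin, was at -0.96 (SE 0.25) and Vwf, von Willebrand factor, at -1.06 (SE 0.29). With the meningeal covariate, 0 members of either list had an unadjusted p under 0.05 and the medians were -0.0005 and 0.05. In males alone 2 of 13 and 0 of 14 members were lower at an unadjusted p under 0.05 (all genes: 840 of 15505). In females alone 11 of 13 and 11 of 14 were (all genes: 1038 of 15445). In the test of females minus males, 2 of 13 (15.4%) and 2 of 14 (14.3%) were lower at that p, against 5.79% of all genes.

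Matrix genes and leukocyte genes were lower too. Of 25 matrix and basement membrane genes, 24 had a lower difference and 14 an unadjusted p under 0.05 (56%), with a median of -0.49; Lama4, a vascular laminin chain, was at -0.60 (SE 0.15) and Lox, the collagen cross-linking oxidase, at -1.76 (SE 0.45). With the meningeal covariate, 18 of 25 were higher and the median was 0.10. All 7 tested genes of perivascular macrophages and blood leukocytes were lower, 4 with an unadjusted p under 0.05 (57.1%), with a median of -0.72. They include Mrc1, the mannose receptor (-1.32, SE 0.35), Cd163, the haemoglobin scavenger receptor (-1.25, SE 0.40), and Cd4 (-0.72, SE 0.28). The mean level of this list was 2.30 ± 0.49 log2 CPM in the hippocampus of PBS rats and 1.87 ± 0.19 in that of doxorubicin rats, and 0.87 ± 0.14 and 1.31 ± 0.37 in cortex. With the meningeal covariate, 5 of 7 were lower, 1 at an unadjusted p under 0.05, and the median was -0.13. Microglial genes, by contrast, had 5 higher and 9 lower members, 0 at an unadjusted p under 0.05, and a median of -0.01.

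Immune pathway lists were lower, with medians smaller in size than those of the matrix and leukocyte lists. The medians were -0.38 for antigen presentation, -0.35 for the interferon response and -0.36 for reactive astrocyte genes. Complement had 15 of 17 members lower and 8 at an unadjusted p under 0.05 (47.1%, against 5.52% of all genes). Among these were C7 (-2.31) and the inhibitor Serping1 (-1.06), and the list median was -0.32. Antigen presentation had 12 of 12 lower and 5 at an unadjusted p under 0.05 (41.7%). The class II genes RT1-Bb, RT1-Da and RT1-Ba were at -2.29, -1.65 and -1.57, and B2m, the class I light chain, at -0.21. The interferon response had 26 of 26 lower and 4 at an unadjusted p under 0.05 (15.4%), with Xaf1 at -0.62 and Isg15 at -0.81. Reactive astrocyte genes had 14 of 17 lower and 5 at an unadjusted p under 0.05 (29.4%), led by Cp, ceruloplasmin, at -1.58. Apart from Cfd, 0 members of these lists passed. The meningeal level, which carries part of the tested contrast itself, moved with these lists. With it as a covariate the medians were 0.05 for complement, 0.31 for antigen presentation, 0.12 for the interferon response and 0.26 for reactive astrocyte genes, and 1, 0, 0 and 1 members had an unadjusted p under 0.05 in the lower direction.

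**Figure D3:**
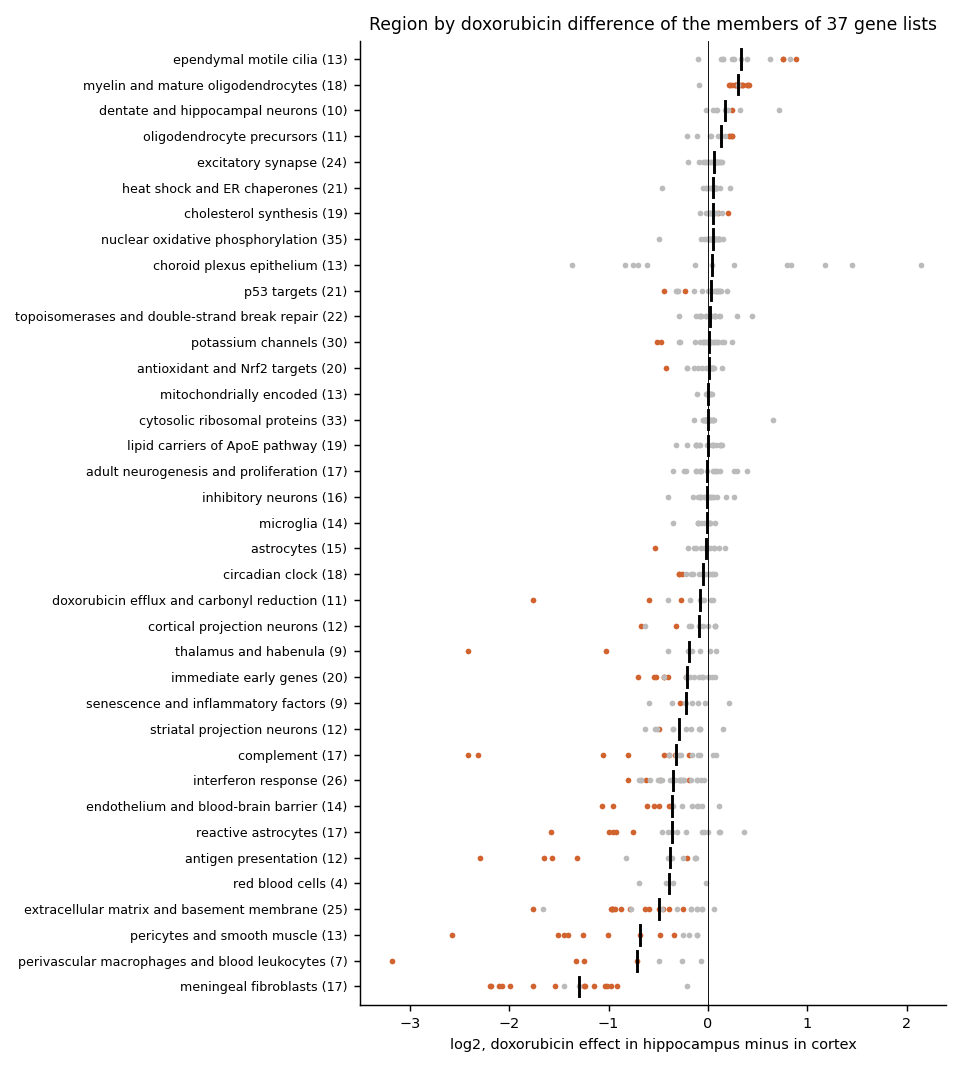
Regional difference (log2, horizontal axis) of each tested member of the gene lists, 1 list per row with the number tested in brackets, orange dots for an unadjusted p under 0.05 and a black bar for the median. Meningeal, vascular and matrix lists lie to the left of 0 and the myelin list to its right, whereas p53 targets and ribosomal genes are centred near 0.

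**Figure D4:**
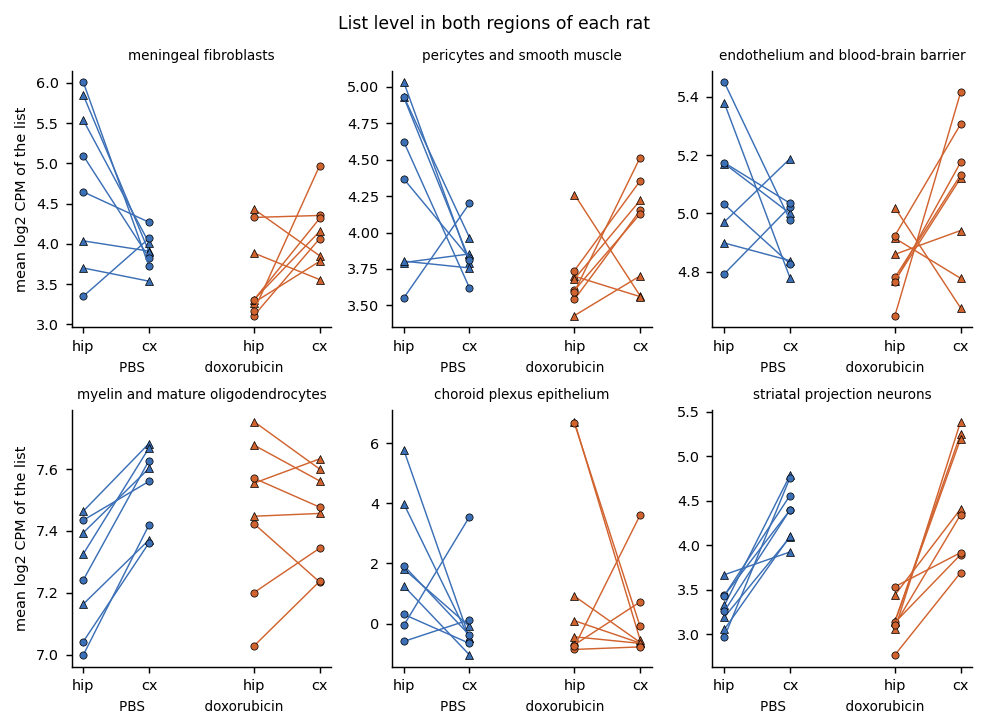
Mean log2 CPM of 6 gene lists in the hippocampus and cortex of each rat, joined by a line, in PBS and doxorubicin rats. Myelin lines rise toward cortex in the 8 PBS rats and run both ways in doxorubicin rats, from -0.21 to 0.19 in hippocampus minus cortex, and meningeal levels spread most in PBS hippocampus.

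Immediate early genes, which neurons induce within minutes of activity, had 16 of 20 members with a lower difference and 7 at an unadjusted p under 0.05 (35%), with a median of -0.21. The median change was -0.09 in hippocampus and 0.11 in cortex. Fos was at 7.29, 15.9 and 28.2 CPM in PBS hippocampus and 5.74, 10.1 and 20.1 CPM in doxorubicin hippocampus, and at 8.86, 34.0 and 44.2 CPM and 16.7, 34.4 and 56.2 CPM in cortex. Its groups overlapped in both regions, and its difference was -0.71 (SE 0.16, adjusted p = 0.108). The orphan receptor Nr4a1 was at -0.44 (SE 0.11), the phosphatase Dusp1 at -0.54 (SE 0.15) and the antiproliferative gene Btg2 at -0.44 (SE 0.14). The count was 0 without the block, 2 with the meningeal covariate and 3 without the 6 rats rich in choroid plexus genes. Clock genes had 13 of 18 members lower and 3 at an unadjusted p under 0.05 (16.7%, against 5.52% of all genes). These were Npas2 (-0.29), Per3 (-0.29) and Per2 (-0.26). Of 30 potassium channel genes 12 were lower and 2 had an unadjusted p under 0.05, Kcnt1 (-0.47) and Kcnf1 (-0.51), a share of 6.67% near the 5.52% of all genes.

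Genes of ependymal motile cilia had 12 of 13 members with a higher difference and 3 at an unadjusted p under 0.05 (23.1%), the dynein Dnah12 (0.76), the adenylate kinase Ak7 (0.76) and the cilium assembly factor Ccdc40 (0.89), with a median of 0.33. Their hippocampal level was 2.94 ± 0.28 log2 CPM in PBS and 3.33 ± 0.57 in doxorubicin rats, which overlapped. The highest doxorubicin levels, 4.06 and 4.20, were those of rats 51 and 65, and the highest PBS levels, 3.36 and 3.23, those of rats 37 and 41, the 4 hippocampi rich in choroid plexus genes. Without the 6 rats rich in those genes the list had 10 of 13 members higher, 3 at an unadjusted p under 0.05, and a median of 0.36. Dentate and hippocampal neuron genes had 9 of 10 members higher, with a median of 0.18 and only Neurod2 (0.24) at an unadjusted p under 0.05. Cortical projection neuron genes had 9 of 12 lower, with a median of -0.09; Cux2, an upper-layer factor, was at -0.33 and Tshz2 at -0.67. Excitatory synapse genes had 17 of 24 higher with a median of 0.07, and inhibitory neuron genes 8 of 16 with a median of -0.01, each with 0 members at an unadjusted p under 0.05.

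No gene of the lists for the drug's known actions passed. Of 21 p53 targets, 13 were higher and 8 lower, with a median of 0.03 and 2 at an unadjusted p under 0.05, Btg2 and Aen (-0.23), both lower (9.52%, against 5.52% of all genes). Cdkn1a, the p21 inhibitor induced by p53, was at 4.30, 6.87 and 12.8 CPM in PBS hippocampus and 3.51, 6.19 and 18.9 CPM in doxorubicin hippocampus, with a difference of 0.13 (SE 0.32). Topoisomerase and double-strand break repair genes had 14 of 22 higher, a median of 0.03 and 0 at an unadjusted p under 0.05. Of 11 genes of doxorubicin efflux and carbonyl reduction, 9 were lower and 3 had an unadjusted p under 0.05 (27.3%, against 5.52% of all genes). These were Akr1c14 (-1.76), the endothelial synthase Nos3 (-0.60) and the efflux pump Abcb1b (-0.27). Antioxidant genes had 13 of 20 higher and a median of 0.01. The cystine carrier Slc7a11, at -0.42, was the only member at an unadjusted p under 0.05 (5%, against 5.52% of all genes). Nuclear oxidative phosphorylation genes had 30 of 35 higher with a median of 0.05. Of them, 1 had an unadjusted p under 0.05 in that direction, a share of 2.86% near the 2.7% of all genes. Mitochondrially encoded genes (6 of 13 higher) and ribosomal protein genes (16 of 33 higher) had 0 members at an unadjusted p under 0.05.

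The genes read out in every case did not pass. The donor row was at -0.11 (SE 0.12), with -0.16 in hippocampus and -0.06 in cortex, and rat Apoe was at -0.21 (SE 0.16). Gfap, the astrocyte filament protein, was at 0.12 (SE 0.09). Ttr, the transthyretin of the choroid plexus, was at -0.70 with an SE of 3.50, and ran from 4.25 to 2952 CPM among PBS hippocampi.

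The regional difference was also compared between the sexes, with 4 rats per sex and treatment. The difference in females minus that in males passed for 16 genes (0.104%), 13 higher in females (0.0843%) and 3 lower (0.0194%). With single rats left out in turn this count ran from 1 without rat 47 to 83 without rat 56, and it was 8 or fewer without 14 of the 16 rats; without rat 68 it was 36. Scn4b, a sodium channel subunit abundant in striatal neurons, led with 1.75 (SE 0.21, adjusted p = 0.00126), from -1.04 in males and 0.71 in females. In cortex Scn4b was at 79.1, 89.5 and 103 CPM in male PBS rats and 130, 173 and 207 CPM in male doxorubicin rats. In females it was at 113, 120 and 130 CPM in PBS and 72.7, 81.0 and 86.0 CPM in doxorubicin cortex, which is the other direction. Rcan2, a calcineurin regulator, was at 0.79 (adjusted p = 0.00702), Rasgrp1, a Ras exchange factor, at 0.91 (adjusted p = 0.0374), and Bcl11b, a factor of striatal and deep-layer cortical neurons, at 0.73 (adjusted p = 0.0374).

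Striatal genes moved with this sex difference. All 12 tested members of the striatal projection neuron list were higher in females minus males, 8 at an unadjusted p under 0.05 (66.7%, against 8.48% of all genes), with a median of 1.28 against 0.02 over all genes. The mean striatal level in cortex was 3.92 to 4.79 log2 CPM in male PBS rats, 4.41 to 5.39 in male doxorubicin rats, 4.39 to 4.76 in female PBS rats and 3.69 to 4.34 in female doxorubicin rats. With that level as a covariate, chosen after seeing the data, 0 genes passed and the smallest adjusted p was 0.162. The level itself follows the sex difference, so the covariate takes up part of that contrast. Other lists moved with the sex difference as well. Potassium channel genes had 27 of 30 members higher, 18 at an unadjusted p under 0.05 (60%), with a median of 0.48. Cortical projection neuron genes had 11 of 12 higher, 4 at that p (33.3%), and ribosomal protein genes had 32 of 33 lower, 13 at that p (39.4%, against 5.79% of all genes). Myelin genes had a median of -0.04 and 1 of 18 at an unadjusted p under 0.05. The passing myelin genes Fa2h, Opalin and Ugt8 were positive in each sex: Fa2h was at 0.45 in males and 0.40 in females, Opalin at 0.40 and 0.30, and Ugt8 at 0.30 and 0.54. Taken alone, males gave 8 passing genes and females 1, and 0 of the 9 genes were among them.

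**Figure D5:**
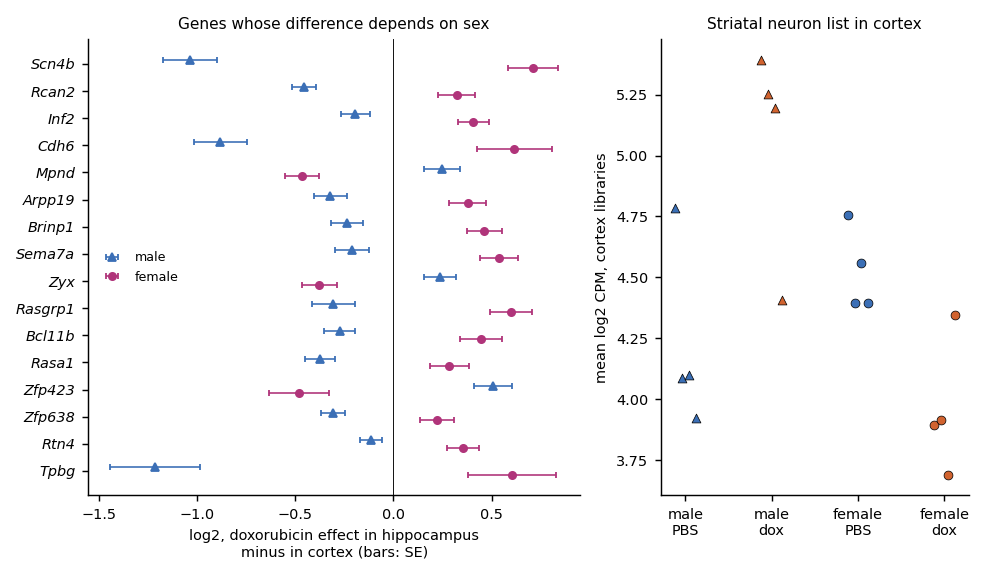
Left, the regional difference (log2, ± SE) in males and in females for the 16 genes that differed between the sexes; right, the mean log2 CPM of the striatal list in cortex for each rat by sex and treatment. The male and female values have opposite signs for the 16 genes, which their selection for a sex difference favours. The striatal level is highest in male doxorubicin cortex and lowest in female doxorubicin cortex.

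The same contrast in the 32 ApoE4 libraries gave 0 passing genes of 15432, with 545 at an unadjusted p under 0.05 and a smallest adjusted p of 1.00. Fa2h was at 0.05 (SE 0.11) in ApoE4 rats, Opalin at 0.14 (SE 0.12), Ugt8 at 0.10 (SE 0.13), Col12a1 at -0.02 (SE 0.22), Col6a2 at 0.15 (SE 0.31), Fgl2 at -0.17 (SE 0.34) and Cfd at -0.03 (SE 0.47). The difference between the genotypes was tested on all 64 libraries and did not pass for any of 15885 genes; 967 had an unadjusted p under 0.05 (6.09%), the smallest adjusted p was 0.679 and DESeq2 called 0. In that test, which gives ApoE3 minus ApoE4, Fa2h was at 0.37 (unadjusted p = 0.00612), Opalin at 0.21 (unadjusted p = 0.128), Ugt8 at 0.31 (unadjusted p = 0.0525), Col12a1 at -0.93 (unadjusted p = 0.00256), Col6a2 at -1.17 (unadjusted p = 0.00532), Fgl2 at -0.94 (unadjusted p = 0.0326) and Cfd at -2.37 (unadjusted p = 0.00116). These genes were chosen for their ApoE3 value, which favours a small p in this test. The meningeal list had a median of -1.17 with 7 of 17 members at an unadjusted p under 0.05 (41.2%, against 3.49% of all genes), and the myelin list a median of 0.19 with 2 of 18 (11.1%, against 2.6%). In ApoE4 rats alone, 16 of 18 myelin genes had a higher difference, with a median of 0.11 against 0.003 over all genes. Of them 1 had an unadjusted p under 0.05 (5.56%, against 1.7% of all genes). Meningeal genes there were lower in 13 of 17, 0 at that p, with a median of -0.13.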

How the data were processed

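Gene expression was measured by RNA sequencing in the hippocampus and cortex of ApoE3 rats, and the 32 libraries fall into 4 groups of 8 by region and treatment. Libraries were made with a kit that does not mark strand, so reads of a gene and of an antisense partner cannot be told apart. Per the submitters' processing notes, STAR 2.5.2b and DESeq2 (version not given) were the authors' tools for alignment and group comparison. The read counter and the genome build are not given in the sources used here. The deposited tables hold unmodified read counts for 32644 rows, of which 32551 are genes, 92 are ERCC spike-ins and 1 is the ApoE3 donor sequence. The authors' comparison tables hold for each gene a log2 fold change and p-values before and after adjustment. They also carry a deposited signal for each library, the count divided by a size factor, which was not used for tests.

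Counts without the spike-ins entered edgeR 4.0.16 (R 4.3.3) after filterByExpr on the 4 groups, with TMM scaling and the quasi-likelihood F-test. The design held the rat as a block, the region and a region by doxorubicin term, with 14 residual degrees of freedom. Regional effects were fitted on 16 libraries with sex as a covariate. Each SE was obtained as the size of the log2 change over the root of its F statistic, and log2 CPM carries a prior count of 1. The pairing comes from the animal: the 2 libraries of a rat deviated together from their group means with a median correlation of 0.295 over rats (from -0.013 to 0.565, 10797 genes), over 0.1 in 13 of 16. Within its group, the best match was the rat's own cortex for only 7 of 16 rats. The within-rat correlation estimated in limma-voom was 0.0628. No 2 libraries of a group were alike within sampling noise (chi-square per degree of freedom of at least 3.04 in 112 pairs). The number of rats and the depth of 10.8M to 20.4M counts limit the precision, and p-values measure the spread between these rats.

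The named genes are the 12 of smallest p in each direction whose symbol is official and whose mean log2 CPM is 0 or more, the 4 members of smallest p in each described list, and Apoe, Cdkn1a, Gfap, Mbp, Fos, Ttr and the donor row; a few genes that this rule names, 1 of the 9 that passed among them, are not reported here. The 37 lists hold 698 genes, of which 614 matched a row and 610 were tested. The members and lists were chosen with earlier results of these data known. List levels are given without a test. DESeq2 1.42.0, limma 3.58.1 (voom), other scalings and filters, single sexes, covariates and the removal of each rat were tried as alternatives. The blocked fit of the regional difference was also run on simulated counts, drawn without a rat effect. The other fits were not tested in this way.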

Additional observations from a re-analysis of the deposited data

Results flagged for a closer look

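Of 126 groups of 8 rats examined, 10 had a rat set apart from the others by more than the limit of Dixon's test at 95%, which chance gives in about 1 in 20 groups. Among within-rat differences these were, in doxorubicin rats, Ugt8 in rat 66 (0.46, others -0.20 to 0.10), Tubb4a in rat 68 (-0.34, others -0.16 to -0.02), Sik1 in rat 49 (0.12, others -0.90 to -0.44) and Apoe in rat 65 (-0.26, others 0.29 to 0.76). Rat 66 also had the lowest level of dentate and hippocampal neuron genes in hippocampus (5.65 log2 CPM, others 5.93 to 6.04). Rat 47 had the highest pericyte and smooth muscle level among doxorubicin hippocampi (4.26 log2 CPM, others 3.43 to 3.74).

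The other values set apart were levels of lists for neighbouring tissue. The choroid plexus level in cortex was 3.56 log2 CPM in PBS rat 58 (others -1.04 to 0.13) and 3.61 in doxorubicin rat 72 (others -0.78 to 0.72). The thalamus and habenula level was 3.88 in the hippocampus of PBS rat 45 (others 2.39 to 2.79) and 3.44 in the cortex of doxorubicin rat 72 (others 2.52 to 2.82).

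The regional difference itself differed between the sexes, by edgeR's test of the female minus the male value, for 16 genes. It was higher in females for Scn4b (1.75), Tpbg (1.82), Cdh6 (1.503), Rasgrp1 (0.91), Rcan2 (0.79), Sema7a (0.76), Bcl11b (0.73), Arpp19 (0.71), Brinp1 (0.71), Rasa1 (0.67), Inf2 (0.61), Zfp638 (0.54) and Rtn4 (0.48). It was lower in females for Zfp423 (-0.98), Mpnd (-0.71) and Zyx (-0.61).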

How the results depend on the processing

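The count of 9 genes depended on the settings. In males alone it was 8, with 0 of the 9 genes among them. With RLE size factors it was 9, with upper-quartile scaling 8 and with a stricter filter on low counts 13. It was 82 by DESeq2, 117 with no filter on low counts, which tests 25385 genes, 72 with spike-in scaling (0 higher and 72 lower), 5 with a region by sex term, 5 with the meningeal covariate and 1 in females alone. It was 0 by limma-voom and 0 without the 6 rats rich in choroid plexus genes, a setting with fewer rats that was chosen after seeing the data. Leaving out each rat in turn gave 0 to 63. The cause of these shifts was not tested. Spike-in scaling moved the median over all genes to 0.04.

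Without the replicate block, that is without the pairing by rat, 0 genes passed for the regional difference and 8 passed for its difference between the sexes. The block changed no call between the genotypes, where 0 genes passed with it, without it and by DESeq2. For the difference between the sexes (16 genes) DESeq2 gave 176, the striatal covariate 0 and the removal of single rats 1 to 83, the last 2 settings chosen after seeing the data. Within hippocampus DESeq2 called 145 genes and the removal of single rats left 0. Within cortex DESeq2 called 77, and the removal of single rats gave 0 to 2.

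Fa2h, Opalin, Ugt8, Col12a1, Col6a2, Fgl2 and Cfd kept their sign in every setting run. Tph1 was at 2.496 with the meningeal covariate (adjusted p = 0.975). With each of the 16 rats left out, Fa2h, Tph1 and Col12a1 passed in 14 fits each, Opalin in 10, Ugt8 in 7, Cfd and Fgl2 in 6 and Col6a2 in 4. In the 13 other settings Fa2h and Col12a1 passed in 7, Opalin, Ugt8, Cfd and Fgl2 in 6, and Tph1 and Col6a2 in 5. Over all settings the highest edgeR, DESeq2 or limma-voom adjusted p of Fa2h, Opalin and Ugt8 was 0.9999. Ttr, Cdkn1a, Gfap and the donor row, 4 rows that did not pass, changed sign in 13 fits.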
